A study of Homo sapiens with 4 samples.

Results

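The 10 genes described here set the shape of the mitochondrial network: MFN1, MFN2 and OPA1 join mitochondria, DNM1L, FIS1, MFF, MIEF1 and MIEF2 divide them, and OMA1 and YME1L1 are the proteases that cut OPA1. They were taken from a list of names, with no threshold on a measured value, though the list was drawn up with earlier results of these data known. The value of a gene is the sum of its annotated transcripts, meaning those with an Ensembl identifier that GENCODE release 29 assigns to the gene, and its coding transcripts were also summed apart. The 10 genes are among 51685 genes in the files and hold 131 of 185591 annotated transcripts, of which 73 are coding. RNA was sequenced from WI-38, fibroblasts of human fetal lung that form an established line with a limited lifespan in culture. The 4 libraries, 1 in each group, came from senescent mitoplasts, young mitoplasts, senescent whole cells and young whole cells. Senescent cells were at population doubling level 60 and young cells at level 21, and the labels name no other agent or allele in any group. A mitoplast is a mitochondrion without its outer membrane: the labels describe lysis with the detergent CHAPS, swelling of crude mitochondria in hypotonic buffer, and RNase A digestion on both sides of the pelleting step.

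Mitochondria fuse and divide continuously. The mitofusins MFN1 and MFN2, GTPases anchored in the outer membrane, tether and join outer membranes, and OPA1, a dynamin-like GTPase of the inner membrane, joins inner membranes and shapes cristae. OMA1 and YME1L1 cut long OPA1, which is anchored in the membrane, into short forms. Division is carried out by DNM1L, also called DRP1, a dynamin-like GTPase of the cytosol that the outer membrane proteins MFF, FIS1, MIEF1 and MIEF2 recruit to mitochondria. All of these proteins are encoded in the nucleus and translated in the cytosol, and long, interconnected mitochondria have often been described in senescent fibroblasts.

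The unit is FPKM, which divides the fragments of a transcript by its length and by the mapped fragments of the library, so levels are per length. In a gene sum a short transcript weighs more than a long one with the same fragments, so the order of genes depends on the transcripts summed. With 1 library in each group, no difference has a replicate check, and no error, p-value or test is given. The files hold no counts, so the depth is unknown. Assembled transcripts, which carry no Ensembl identifier, held 97.3% of the summed FPKM in the senescent mitoplast library, 92.7% in the young mitoplast library, 76.2% in senescent whole cells and 53.7% in young whole cells. The senescent mitoplast library held 6594 nuclear coding genes at 1 FPKM or more, against 9482 to 9724 in each of the other 3. Fibroblast markers were above 0 for 7 of 10 genes in senescent mitoplasts, where VIM, COL5A1 and S100A4 were listed at 0, for 9 in young mitoplasts and for all 10 in both whole-cell libraries. Markers of other cells were at 1 FPKM or more for 2 to 4 of 8 epithelial, 1 to 2 of 5 endothelial and 0 to 1 of 7 blood and immune genes. Their sums were 23.0 to 26.9, 8.23 to 32.5 and 0.48 to 13.4 FPKM. Epithelial KRT18 had 12.6 to 19.7 FPKM and endothelial TEK 7.95 to 28.8 FPKM over the 4 libraries. VWF had 23.3 FPKM in senescent mitoplasts, and PTPRC 12.4 FPKM in young mitoplasts. SFTPB, CDH5 and CD3E were listed at 0 in all 4 libraries. The part of these markers in the results was not tested. LMNB1, a nuclear lamina gene known to decline in senescence, had 0.40 FPKM in whole senescent cells and 32.7 FPKM in whole young cells, but in mitoplasts it had 7.73 FPKM in the senescent library and was listed at 0 in the young one. An exact 0 in these files can be a failed estimate: HPRT1, a purine salvage enzyme that every cell uses, had 6.63 FPKM in the senescent mitoplast library, against 0 in the young one, and was listed at 0 in senescent whole cells, against 5.32 FPKM in young whole cells. Such values are therefore given as listed at 0, and no ratio against one is quoted for a gene. Where such a gene enters a count, a median or a plot, its ratio depends on the pseudocount of 1 added to each FPKM.

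Ranked by the annotated sum, the division GTPase DNM1L led in whole cells and the inner membrane protease YME1L1 led in the senescent mitoplast library. DNM1L was the highest of the 10 genes in senescent whole cells at 75.3 FPKM and in young whole cells at 102 FPKM. YME1L1 led the senescent mitoplast library at 43.4 FPKM, and FIS1 the young mitoplast library at 58.2 FPKM. The lead of DNM1L rests on a short noncoding transcript: on complete coding transcripts the highest gene was YME1L1 at 28.8 FPKM in senescent whole cells and FIS1 at 47.3 FPKM in young whole cells. With each FPKM multiplied by transcript length in kb, YME1L1 was the highest in all 4 libraries, at 93.6 against 75.9 for DNM1L in senescent whole cells and 105 against 66.3 in young whole cells. OMA1 was the lowest gene in both whole-cell libraries, and in the mitoplast libraries it was listed at 0 together with MFF in the senescent and DNM1L in the young one. The median over the 10 genes was 8.66 FPKM in the senescent mitoplast library, 14.5 in the young mitoplast library, 23.1 in senescent whole cells and 26.8 in young whole cells.

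Much of the plain FPKM sum did not lie in coding transcripts with a complete annotated reading frame. Complete coding transcripts held 95.5 of 245 FPKM in senescent whole cells and 117 of 312 in young whole cells. Plain sums give short transcripts more weight. With each FPKM multiplied by transcript length, coding transcripts held 57.2% of OPA1 and 64.9% of DNM1L in senescent whole cells, and 45.0% and 39.8% in young ones. Such shares were computed for these genes alone. Of the 131 annotated transcripts, 35 were above 0 in any library, 16 in 1 library alone and 3 in all 4. The senescent mitoplast library held 10 of them, against 16 in the young mitoplast library, 21 in senescent whole cells and 20 in young whole cells. Genes with a complete coding transcript above 0, meaning an annotated reading frame with its start and stop, numbered 3 in the senescent mitoplast library, 7 in the young mitoplast library, 9 in senescent whole cells and 10 in young whole cells. The 3 in the senescent mitoplast library were MFN2, MIEF1 and YME1L1. A complete frame can still be a short one. DNM1L-205 has 533 codons against 738 in DNM1L-203. MIEF2-206, the only coding MIEF2 transcript above 0 in young whole cells, has 117 codons against 465 in MIEF2-204.

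**Figure D1:**
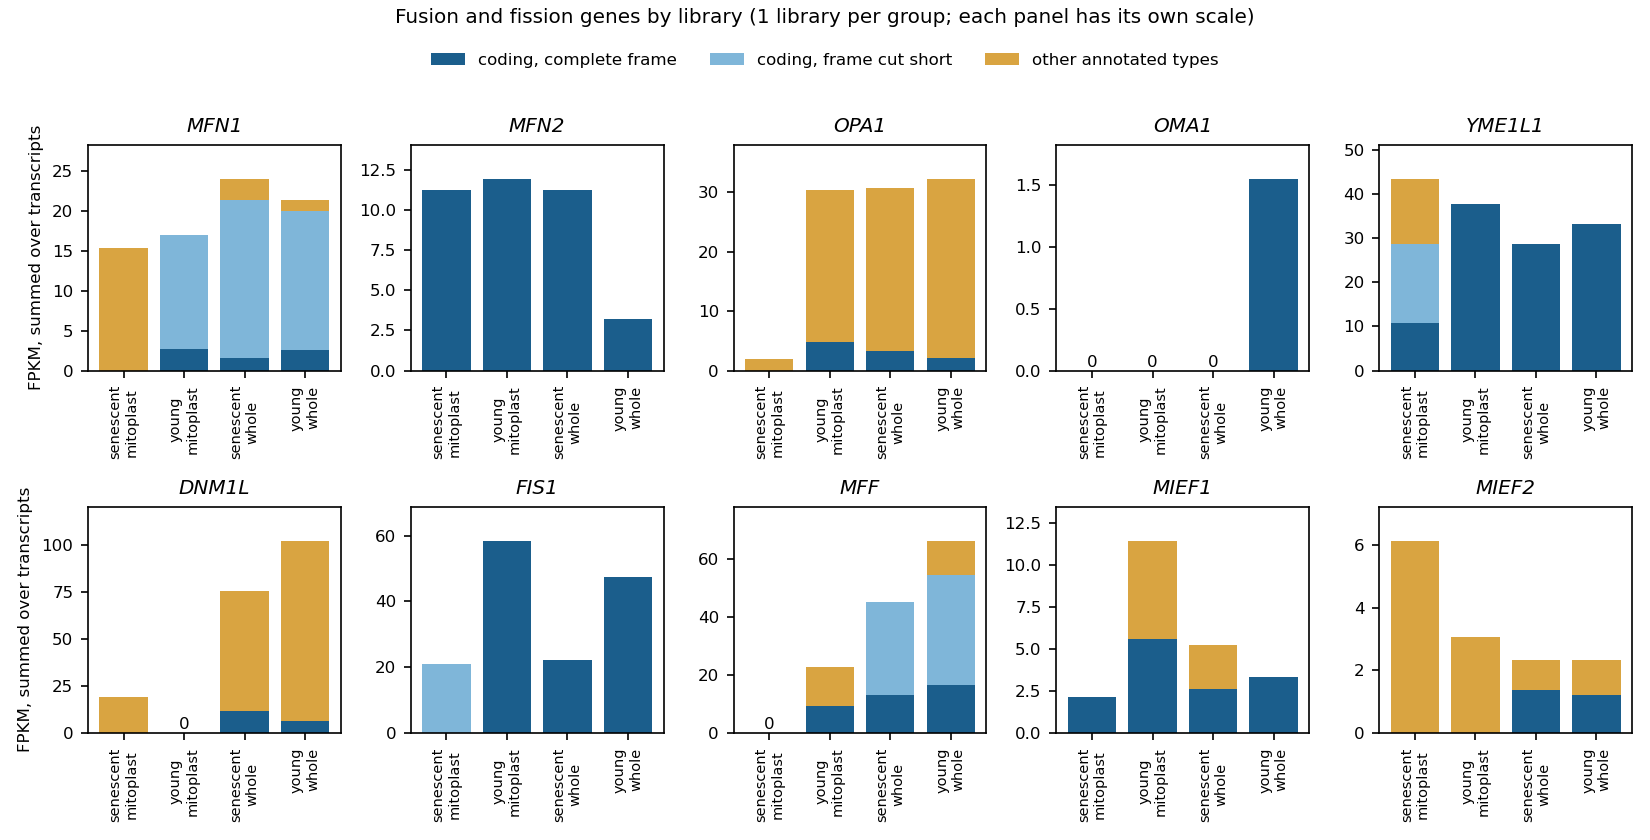
FPKM (vertical axis, a separate scale for each gene) of the 10 genes in the 4 libraries (horizontal axis, 1 library per group), split into coding transcripts with a complete reading frame, coding transcripts whose annotated frame is cut short, and other annotated types. MFN2 lies wholly in complete coding transcripts, whereas OPA1 and DNM1L lie mostly in other types, with DNM1L at 11.4 of 75.3 FPKM in coding transcripts in senescent whole cells and 5.96 of 102 FPKM in young whole cells.

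The mitofusins differed from each other in where their signal lay. MFN1, on chromosome 3, had 15.3 FPKM in the senescent mitoplast library and 17.02 in the young mitoplast library, with 24.0 in whole senescent cells and 21.4 in whole young cells. These sums lay within a factor of 2 of each other, but they came from different transcripts. The coding transcripts of MFN1 had 0 FPKM listed in the senescent mitoplast library and stood at 17.02 FPKM in the young mitoplast library, 21.5 in senescent whole cells and 20.1 in young whole cells. Most of that was MFN1-204, a transcript of 543 nt that covers only the start of the reading frame, at 14.3 FPKM in the young mitoplast library, 19.9 in whole senescent cells and 17.5 in whole young cells. The complete transcript MFN1-205, with 741 codons, had 2.73 FPKM in the young mitoplast library, 1.60 in senescent whole cells and 2.58 in young whole cells. In the senescent mitoplast library the whole MFN1 value was MFN1-208, a retained-intron transcript of 696 nt listed at 0 in the other 3 libraries.

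MFN2, on chromosome 1, was the gene with the simplest record: each library held exactly 1 MFN2 transcript above 0, and each such transcript encodes the same number of codons, 757. MFN2 had 11.2 FPKM in the senescent mitoplast library and 11.9 in the young mitoplast library, with 11.2 in whole senescent cells and 3.22 in whole young cells. Young whole cells were thus the low library and the other 3 lay close together. The transcript was MFN2-203 in the senescent mitoplast library and MFN2-201 in the other 3. In whole cells MFN2 was 3.49 times higher in the senescent library, a log2 ratio of 1.53. Ratios throughout are on the log2(FPKM + 1) scale, on which the change of a low gene is understated, and a ratio of 1 or more in either direction is called. The MFN2 call rests on leaving out the assembled transcript of the same locus, which was absent from senescent whole cells and stood at 20.7 FPKM in young whole cells. With assembled transcripts added, the ratio was −1.03.

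OPA1, on chromosome 3, had nearly the same annotated sum in 3 libraries and a low one in the last. It had 1.94 FPKM in the senescent mitoplast library and 30.4 in the young mitoplast library, with 30.7 in whole senescent cells and 32.2 in whole young cells. Coding transcripts made up little of this: they had 0 FPKM listed in the senescent mitoplast library and stood at 4.83 FPKM in the young mitoplast library, 3.25 in senescent whole cells and 2.17 in young whole cells. The rest was in retained-intron transcripts, and each was a different piece of the gene. In whole cells it was OPA1-218, of 562 nt, at 27.4 FPKM in senescent and 30.0 in young cells. In mitoplasts it was OPA1-216, of 3660 nt, at 1.94 FPKM in the senescent library, and OPA1-214, of 567 nt, at 25.6 FPKM in the young library. FPKM divides by length, so a short piece weighs more than a long mRNA with the same number of fragments. With each FPKM multiplied by transcript length, coding transcripts held 67.8% of OPA1 in the young mitoplast library, 57.2% in senescent whole cells and 45.0% in young whole cells, against 15.9%, 10.6% and 6.75% of the plain sum.

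The coding OPA1 transcript that received an estimate differed between libraries. In senescent whole cells it was OPA1-201, with 961 codons, at 3.25 FPKM, and in young cells it was OPA1-208, with 960 codons, at 4.83 FPKM in the mitoplast library and 2.17 FPKM in whole cells. Each was listed at 0 where the other was above 0. The transcripts share 27 coding exons, and OPA1-208 has exon 4 where OPA1-201 has exon 5b. Exon 5b is known to encode a site at which YME1L1 cuts OPA1, while the OMA1 site lies in exon 5, which both transcripts hold. The exons that set these transcripts apart, and the retained intron bases that start OPA1-218, are printed because the FPKM of OPA1 divides along them. Sequences are from GRCh38 with GENCODE release 29, on the plus strand, 5′ to 3′, and the files themselves use hg19. Capitals mark exon 4 (chr3:193617178-193617285, 108 bases), exon 5b (chr3:193626092-193626202, 111 bases) and, in the first exon of OPA1-218 (chr3:193618827-193618936), the 42 intron bases that precede the 68 bases of exon 5. Lower case beside exons 4 and 5b gives the 12 neighbouring bases of the spliced transcript.
OPA1 exon 4: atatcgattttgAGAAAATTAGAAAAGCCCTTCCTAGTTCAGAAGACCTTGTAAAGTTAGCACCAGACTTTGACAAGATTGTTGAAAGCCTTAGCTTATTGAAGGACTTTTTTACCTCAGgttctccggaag
OPA1 exon 5b: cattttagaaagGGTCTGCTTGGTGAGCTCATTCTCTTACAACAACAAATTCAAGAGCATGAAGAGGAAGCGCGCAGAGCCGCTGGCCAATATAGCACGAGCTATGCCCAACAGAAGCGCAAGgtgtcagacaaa
OPA1-218 first exon: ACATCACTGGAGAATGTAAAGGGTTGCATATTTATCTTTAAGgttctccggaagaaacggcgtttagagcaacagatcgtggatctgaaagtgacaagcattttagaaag
Exon 4 adds 36 codons and exon 5b adds 37, which accounts for the difference of 1 codon between the transcripts. The 42 capitals of OPA1-218 lie in no coding transcript of OPA1, and the remaining 520 bases of that transcript are shared with coding sequence of the gene, so most fragments of OPA1-218 would match coding transcripts as well.

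The low annotated OPA1 value in the senescent mitoplast library also depends on which identifiers were summed. An Ensembl transcript of the same locus, with no gene name in release 29, was at 35.3 FPKM there and at 0 in the other 3 libraries. Annotated transcripts alone give a ratio of −3.42 for senescent over young mitoplasts and −3.43 for mitoplasts over whole cells of senescent origin. With that transcript added, the ratios were 0.28 and 0.27. Assembled transcripts of the OPA1 locus were at 26.2 FPKM in whole senescent cells and 8.11 FPKM in whole young cells.

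Of the proteases that cut OPA1, YME1L1 stood above OMA1 in all 4 libraries. On the annotated sum, DNM1L and MFF were higher than YME1L1 in both whole-cell libraries. YME1L1, on chromosome 10, had 43.4 FPKM in the senescent mitoplast library and 37.8 in the young mitoplast library, with 28.8 in whole senescent cells and 33.2 in whole young cells. Its lowest and highest libraries were within a factor of 2, and no comparison of the annotated sum passed a ratio of 1 in size before rescaling. With rescaled libraries senescent over young mitoplasts gave 1.09 and 1.16 with 2 of 3 scalings, and senescent mitoplasts over senescent whole cells gave 1.299 to 1.75 with all 3. The young mitoplast library and both whole-cell libraries held the same 2 complete transcripts, YME1L1-203 with 716 codons and YME1L1-202 with 740. YME1L1-202 had 10.7 FPKM in the senescent mitoplast library, 22.6 in the young mitoplast library, 12.9 in senescent whole cells and 17.6 in young whole cells. In the senescent mitoplast library YME1L1-203 was listed at 0, and 2 shorter pieces made up the rest, YME1L1-208 at 18.1 FPKM and YME1L1-206 at 14.7. On complete coding transcripts the log2 ratio of senescent over young mitoplasts was −1.73, against 0.19 for the annotated sum. That of senescent mitoplasts over senescent whole cells was −1.35 on complete coding transcripts, against 0.58. Weighted by length, senescent over young mitoplasts gave −1.08. OMA1, on chromosome 1, was listed at 0 in both mitoplast libraries and in senescent whole cells. Its 1 transcript above 0 was OMA1-201, with 524 codons, at 1.54 FPKM in young whole cells. Its locus in the files also holds DAB1, and assembled transcripts of that shared locus, which cannot be given to either gene, were at 13.9 FPKM in the senescent mitoplast library, 3.60 in the young mitoplast library, 5.18 in whole senescent cells and 2.08 in whole young cells.

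DNM1L, on chromosome 12, showed the widest range of the 10 genes. It had 19.2 FPKM in the senescent mitoplast library and was listed at 0 in the young mitoplast library, with 75.3 in whole senescent cells and 102 in whole young cells. Nearly all of it was DNM1L-215, a processed transcript of 417 nt with no annotated reading frame, at 19.2 FPKM in the senescent mitoplast library, 63.9 in senescent whole cells and 95.7 in young whole cells. Coding DNM1L was listed at 0 in both mitoplast libraries and stood at 11.4 FPKM in whole senescent cells and 5.96 FPKM in whole young cells. The annotated sum and the coding sum thus ran in opposite directions between senescent and young whole cells, at log2 ratios of −0.43 and 0.83, and neither passed 1. The higher coding sum in senescent whole cells rests on DNM1L-205, with 533 codons, at 6.14 FPKM there and listed at 0 in young whole cells. Apart from it, coding DNM1L stood at 5.26 FPKM in senescent and 5.96 FPKM in young whole cells. Weighted by length, coding transcripts held 64.9% of DNM1L in senescent and 39.8% in young whole cells, against 15.1% and 5.86% of the plain sum.

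The coding forms of DNM1L differ in 3 short exons known to be spliced alternatively, exon 3 in the GTPase domain and exons 16 and 17 in the variable domain. DNM1L-207, with 710 codons and exon 17, had 5.26 FPKM in whole senescent cells and 3.85 FPKM in whole young cells. DNM1L-203, with 738 codons and exons 3 and 16, was listed at 0 in whole senescent cells and had 2.10 FPKM in young whole cells. DNM1L-205, with 533 codons and all 3 exons, had 6.14 FPKM in senescent whole cells and was listed at 0 in young whole cells. DNM1L-205 lacks 4 coding exons (443 bases) that DNM1L-207 holds, and its annotated frame starts later. The 3 exons and the junction particular to the structure of DNM1L-215 are printed because the estimates are divided along them, again from GRCh38 with GENCODE release 29 on the plus strand. Capitals mark exon 3 (chr12:32705825-32705863, 39 bases), exon 16 (chr12:32737865-32737942, 78 bases) and exon 17 (chr12:32738264-32738296, 33 bases), between the 12 neighbouring bases of the spliced transcript. In the last line the lower case is the end of 1 exon (chr12:32707384-32707413) and the capitals the start of the next (chr12:32718643-32718672).
DNM1L exon 3: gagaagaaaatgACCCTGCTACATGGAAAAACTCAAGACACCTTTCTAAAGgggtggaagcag
DNM1L exon 16: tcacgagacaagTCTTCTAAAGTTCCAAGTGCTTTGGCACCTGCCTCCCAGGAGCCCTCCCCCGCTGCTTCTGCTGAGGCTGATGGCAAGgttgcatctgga
DNM1L exon 17: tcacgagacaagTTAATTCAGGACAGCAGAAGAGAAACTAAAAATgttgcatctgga
DNM1L-215 junction: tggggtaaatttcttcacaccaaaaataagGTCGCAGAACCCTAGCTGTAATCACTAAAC
The junction skips 3 coding exons, 322 bases in all, of DNM1L-207. The other exons of DNM1L-215 lie within exons of coding transcripts, so fragments that do not cross this junction match those transcripts as well. YARS2, which encodes the mitochondrial tyrosyl-tRNA synthetase, lies on the opposite strand over part of DNM1L and had 16.5 FPKM in the young mitoplast library and was listed at 0 in the other 3. Whether counting used the strand is not stated in the sources used here, so reads of such overlapping genes cannot be told apart. An assembled transcript of the DNM1L locus had 17.6 FPKM in the young mitoplast library, where the annotated sum was 0.

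**Figure D2:**
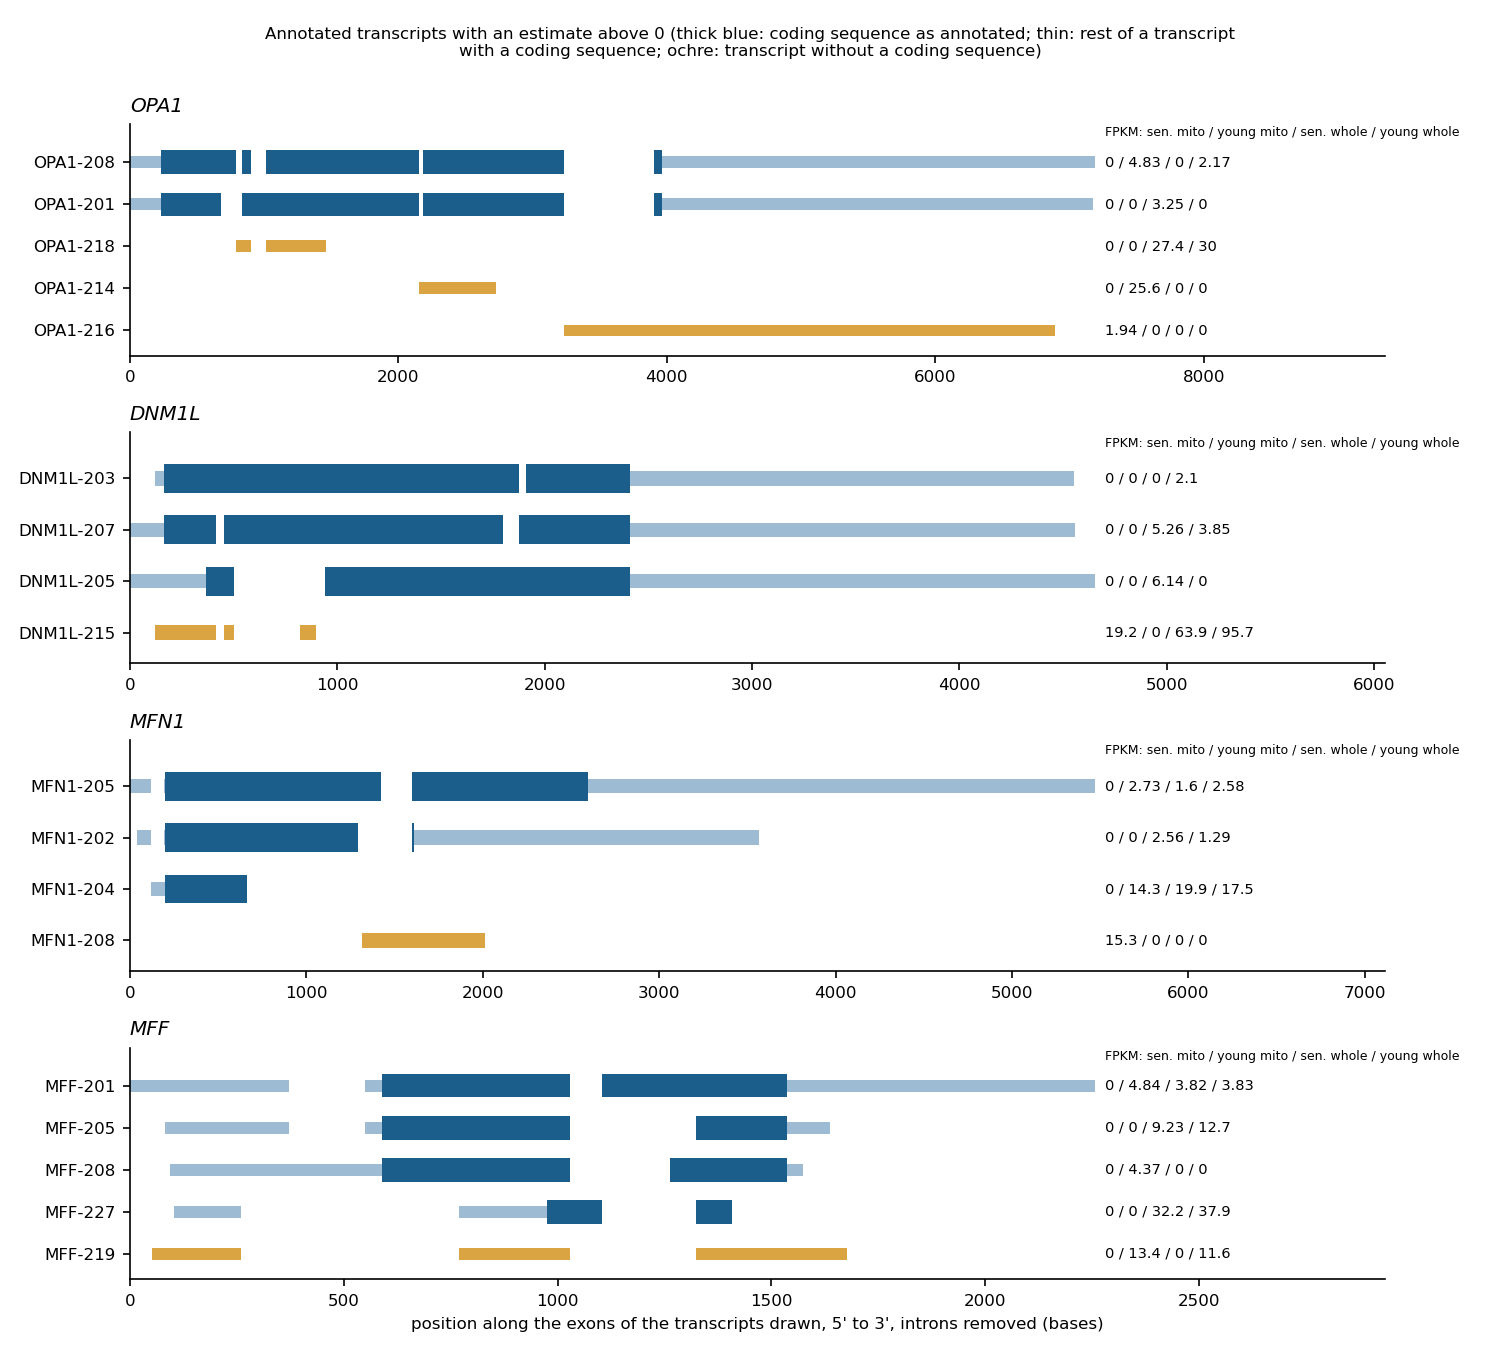
Annotated transcripts of OPA1, DNM1L, MFN1 and MFF with an estimate above 0, drawn along the pooled exons of the transcripts shown (horizontal axis, bases, introns removed; thick blue is coding sequence, ochre marks a transcript without one), with FPKM in the 4 libraries at the right. The transcripts with the highest FPKM are short: DNM1L-215 of 417 nt reaches 95.7 FPKM and OPA1-218 of 562 nt reaches 30.0 FPKM, both in young whole cells.

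Of the outer membrane receptors for DNM1L, FIS1 and MFF were the most abundant in whole cells and in young mitoplasts. FIS1, on chromosome 7, had 20.9 FPKM in the senescent mitoplast library and 58.2 in the young mitoplast library, with 22.2 in whole senescent cells and 47.3 in whole young cells. Both senescent libraries were lower than both young ones, by 2.79 times between mitoplasts and 2.13 times between whole cells. The log2 ratios were −1.44 and −1.06. FIS1 is not spread over pieces: FIS1-201, with 152 codons, was the only FIS1 transcript above 0 in the young mitoplast library and both whole-cell libraries. In the senescent mitoplast library the value came from FIS1-202, of 692 nt with an incomplete frame, and FIS1-201 was listed at 0. Rescaling the libraries took both ratios under 1 in size, to between −0.48 and −0.90 for mitoplasts with 3 scalings, and to −0.84 and −0.78 for whole cells with 2 of the 3.

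MFF, on chromosome 2, the receptor with the main part in recruiting DNM1L, was listed at 0 in the senescent mitoplast library and had 22.6 FPKM in the young mitoplast library, with 45.3 in whole senescent cells and 66.1 in whole young cells. Between whole cells the log2 ratio was −0.54, and between young mitoplasts and young whole cells it was −1.51. Most of MFF in whole cells was MFF-227, of 576 nt with an incomplete frame, at 32.2 FPKM in senescent and 37.9 in young cells. Complete coding MFF stood at 9.20 FPKM in the young mitoplast library, 13.1 in senescent whole cells and 16.5 in young whole cells, a narrower spread than that of the sum. On that basis the ratio of young mitoplasts to young whole cells was −0.78. The complete transcripts differ by library: MFF-205, with 218 codons, had 9.23 FPKM in whole senescent cells and 12.7 in whole young cells, and MFF-208, with 238 codons, had 4.37 FPKM in the young mitoplast library, each listed at 0 in the other fraction. MFF-201, with 291 codons, had 4.84 FPKM in the young mitoplast library, 3.82 in whole senescent cells and 3.83 in whole young cells. MFFP1, a processed pseudogene that could share MFF reads, had 0.32 FPKM in whole senescent cells and 0.48 FPKM in whole young cells and was listed at 0 in both mitoplast libraries.

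MIEF1 and MIEF2, also called MID51 and MID49, had at most 11.4 FPKM in any library. MIEF1, on chromosome 22, had 2.14 FPKM in the senescent mitoplast library and 11.4 in the young mitoplast library, with 5.22 in whole senescent cells and 3.29 in whole young cells. The young mitoplast library was the high one, by 5.32 times over senescent mitoplasts and 3.47 times over young whole cells. Log2 ratios were −1.98 for senescent over young mitoplasts and 1.53 for young mitoplasts over young whole cells. About as much of the young mitoplast value lay in MIEF1-204, a transcript annotated for nonsense-mediated decay, at 5.80 FPKM, as in coding transcripts, at 5.59 FPKM. On coding transcripts the same ratios were −1.07 and 0.62. MIEF2, on chromosome 17, had 6.13 FPKM in the senescent mitoplast library and 3.07 in the young mitoplast library, and 2.33 in each of the senescent and young whole-cell libraries. Both mitoplast libraries held MIEF2 only in noncoding types, led in the senescent one by MIEF2-205, a processed transcript of 543 nt. Coding MIEF2 was listed at 0 in both, against 1.36 FPKM in whole senescent cells and 1.21 FPKM in whole young cells. The log2 ratio of senescent mitoplasts over senescent whole cells was 1.10 on the annotated sum, whereas on coding transcripts the mitoplast library was the lower one. Between senescent and young mitoplasts the ratio of 0.81 was 1.32 to 1.62 after the 3 rescalings.

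The 4 comparisons ask how each gene differed with senescence, in whole cells and in mitoplasts, and how it differed between mitoplast and whole cell, at each age. They reuse the same 4 libraries, so each library enters 2 comparisons. In senescent whole cells, the mitofusin MFN2 was higher than in young whole cells, the DNM1L receptor FIS1 was lower, the protease OMA1 was listed at 0 in the senescent library, and the other 7 genes lay between −0.54 and 0.54. The count was 1 higher and 2 lower of 10 genes compared, where 14.6% of nuclear coding genes were higher and 22.3% lower, so the share was near that background. Less RNA per cell and fewer cells that hold it cannot be told apart in such samples. The median log2 ratio of the 10 genes was −0.14, which is 0.08 above that of the median nuclear coding gene, at −0.21. With coding transcripts alone the count was again 1 higher and 2 lower of 10. Of nuclear coding genes, 15.5% were then higher and 22.3% lower. With assembled transcripts added, the MFN2 ratio became −1.03. After rescaling, the FIS1 ratio was −0.84 by median of ratios, −0.78 by upper quartile and −1.01 by equal sum. The FIS1 call was thus kept with the equal-sum scaling alone.

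In senescent mitoplasts, OPA1, FIS1 and MIEF1 were lower than in young mitoplasts and MFF was listed at 0, while DNM1L was above 0 in the senescent library alone. The mitofusins, MIEF2 and YME1L1 lay between −0.14 and 0.81. The count was 1 higher and 4 lower of 9 genes compared, where 20.3% of nuclear coding genes were higher and 56.5% lower. The median over the 9 genes was −0.14, and that of nuclear coding genes −1.25, a difference of 1.10. On coding transcripts this difference was 0.11, with 0 higher and 5 lower of 7 genes compared, beside 15.6% and 64.9% of nuclear coding genes. With complete coding transcripts it was −0.23, so the position of the 10 genes relative to other genes turned with the transcripts that were summed. The same pair of libraries held 3558 nuclear coding genes listed at 0 in the senescent library and 929 in the young library, of 11049 compared. On annotated transcripts of genes above 0 in both, the medians were −0.14 over 7 of the 10 genes and −0.60 for nuclear coding genes, which lay closer together.

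In young cells, MFN2 and MIEF1 were higher in mitoplasts than in whole cells, MFF was lower, and DNM1L and OMA1 were listed at 0 in the mitoplast library. The other 5 genes, MFN1, OPA1, FIS1, MIEF2 and YME1L1, lay between −0.31 and 0.29. This was 2 higher and 3 lower of 10 genes compared, where 20.9% of nuclear coding genes were higher and 35.3% lower, close to the background in both directions. The median ratio was 0.05, which is 0.38 above the nuclear coding median of −0.33. With coding transcripts alone the count was 1 higher and 4 lower of 10, beside 18.5% and 36.2% of nuclear coding genes. With assembled transcripts added, the MFN2 ratio of 1.61 became −0.45 and that of MIEF1 became 0.80.

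In senescent cells, MIEF2 was higher in mitoplasts than in whole cells, OPA1 and DNM1L were lower, and MFF was listed at 0 in the mitoplast library. MFN1, MFN2, FIS1, MIEF1 and YME1L1 lay between −0.98 and 0.58. The count was 1 higher and 3 lower of 9 genes compared, where 18.4% of nuclear coding genes were higher and 61.0% lower. The median ratio was −0.62, which is 0.82 above the nuclear coding median of −1.44. Over genes above 0 in both libraries, the medians were −0.35 for 8 of the genes and −0.98 for nuclear coding genes. On coding transcripts 0 were higher and 5 lower of 9, beside 13.3% and 70.5% of nuclear coding genes, and the median lay 0.52 above theirs. All 5 were listed at 0 in the mitoplast library. That median was the ratio of MIEF2, which is among them, so its size depends on the pseudocount. For coding transcripts above 0 in both libraries, the medians were −0.04 over 4 genes and −1.16 for nuclear coding genes. The DNM1L ratio of −1.92 was −0.76 and −0.95 after 2 of 3 rescalings. With the unnamed Ensembl transcript of its locus added, the OPA1 ratio was 0.27.

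**Figure D3:**
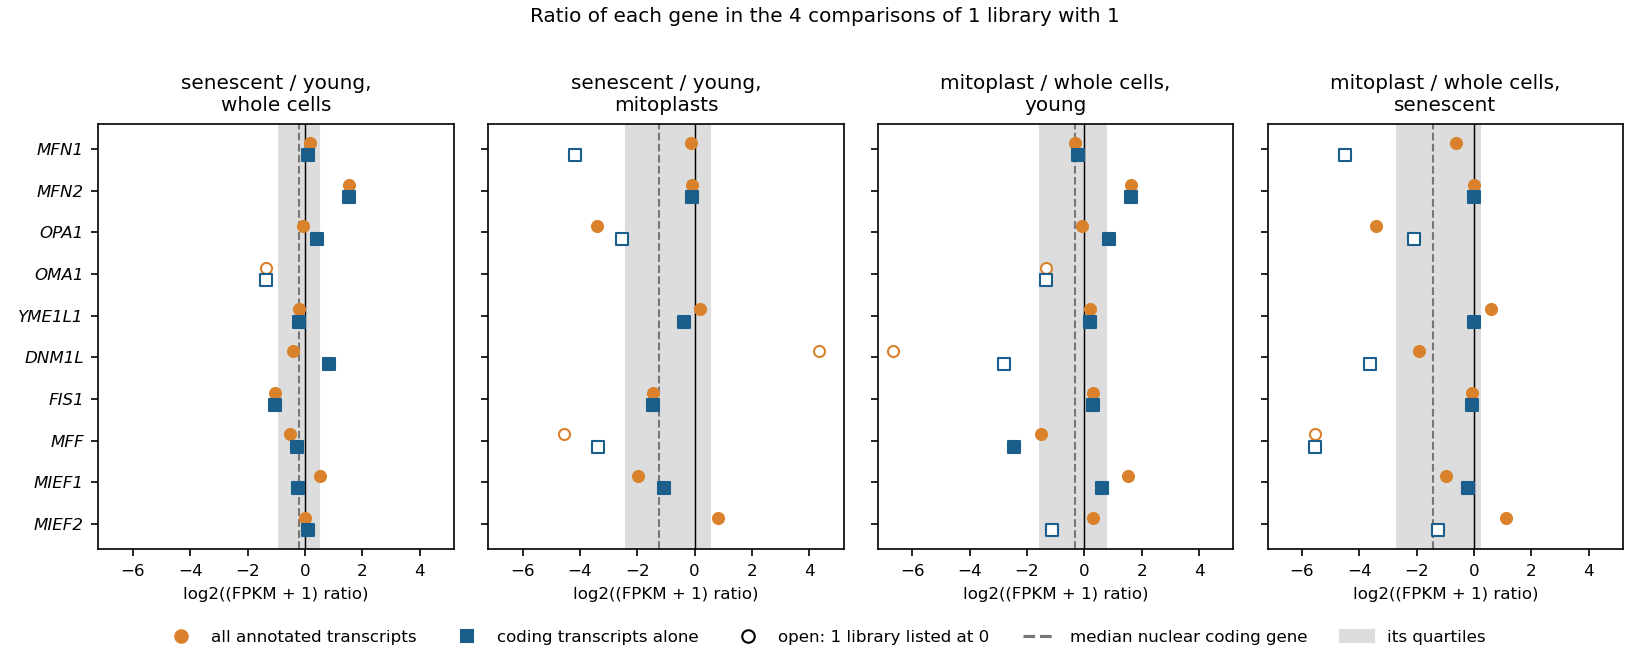
Log2 ratio of (FPKM + 1) (horizontal axis) of the 10 genes in the 4 comparisons, with senescent over young and mitoplast over whole cells, from all annotated transcripts (circles) and from coding transcripts alone (squares); open symbols have a library listed at 0 and depend on the pseudocount, genes under 1 FPKM in both libraries have no symbol, and the dashed line and grey band give the median and quartiles of nuclear coding genes. MFN2 lies at 1.53 in whole cells and OPA1 at −3.42 between mitoplasts, and the squares of MFN1 are open and far to the left in both comparisons with the senescent mitoplast library, where coding MFN1 is listed at 0.

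The genes that act around this machinery were read from 7 lists, and a list is described by its counts and its median, with the background of the same comparison as given above. Lists can share genes, as STOML2 is in the fusion regulators and in the inner membrane proteases and prohibitins. The latter name is a short one, since that list also holds mitochondrial proteases outside the inner membrane and other proteins. In senescent against young whole cells the transport list, which holds the adaptors and motors that carry mitochondria along microtubules, had 3 of 6 genes higher and 0 lower, with a median log2 ratio of 1.00. Its highest gene was TRAK2, a kinesin and dynein adaptor, at 32.1 FPKM in whole senescent cells and 3.15 FPKM in whole young cells, and its lowest RHOT1, the outer membrane GTPase that TRAK2 binds, at 103 FPKM in whole senescent cells and 99.7 FPKM in whole young cells. Among fission regulators 2 of 9 genes were higher, both listed at 0 in young whole cells, and 1 was lower: DNM2, a dynamin of membrane scission, at 17.6 FPKM in whole senescent cells and 114 FPKM in whole young cells. Of fusion regulators 0 of 6 were higher and 2 lower, with STOML2, a scaffold that stabilises long OPA1, at 10.7 FPKM in whole senescent cells and 30.4 FPKM in whole young cells. The cristae-organising MICOS and bridging complex had 0 of 11 higher and 3 lower, 1 of them listed at 0 in senescent whole cells, inner membrane proteases and prohibitins 2 higher, both listed at 0 in young whole cells, and 2 lower of 11, and biogenesis regulators 0 higher and 1 lower of 6. Of 10 mitophagy genes 0 were higher and 0 lower, and the one with the highest ratio was the kinase PINK1, at 14.2 FPKM in whole senescent cells and 6.72 FPKM in whole young cells.

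In the comparisons with a mitoplast library most of the list medians were below 0, as was the median of nuclear coding genes. Between senescent and young mitoplasts the list medians ran from −1.74 for mitophagy to −0.02 for inner membrane proteases and prohibitins, where 3 of 10 genes were higher and 3 lower. With genes above 0 in both libraries these medians were −1.56 over 8 genes and −0.31 over 7. In young mitoplasts against young whole cells they ran from −1.96 for fusion regulators, with 0 higher and 4 lower of 6, to 0.35 for transport, with 1 higher and 1 lower of 6. In senescent mitoplasts against senescent whole cells they ran from −3.68 for fusion regulators, with 5 of 5 lower, to −0.50 for inner membrane proteases and prohibitins, with 3 higher and 5 lower of 12. Of the 5 fusion regulators 2 were listed at 0 in the mitoplast library, and the median of the other 3 was −2.19. In the protease list the mitoplast library had 3 genes listed at 0 and the whole-cell library 1, and the median of the 8 above 0 in both was 0.04. MARCHF5, the outer membrane ubiquitin ligase that acts on both fusion and fission proteins, had 3.31 FPKM in the senescent mitoplast library and 4.05 in the young mitoplast library, with 54.2 in whole senescent cells and 53.2 in whole young cells. TRAK2 had 61.6 FPKM in the senescent mitoplast library and 44.2 in the young mitoplast library.

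**Figure D4:**
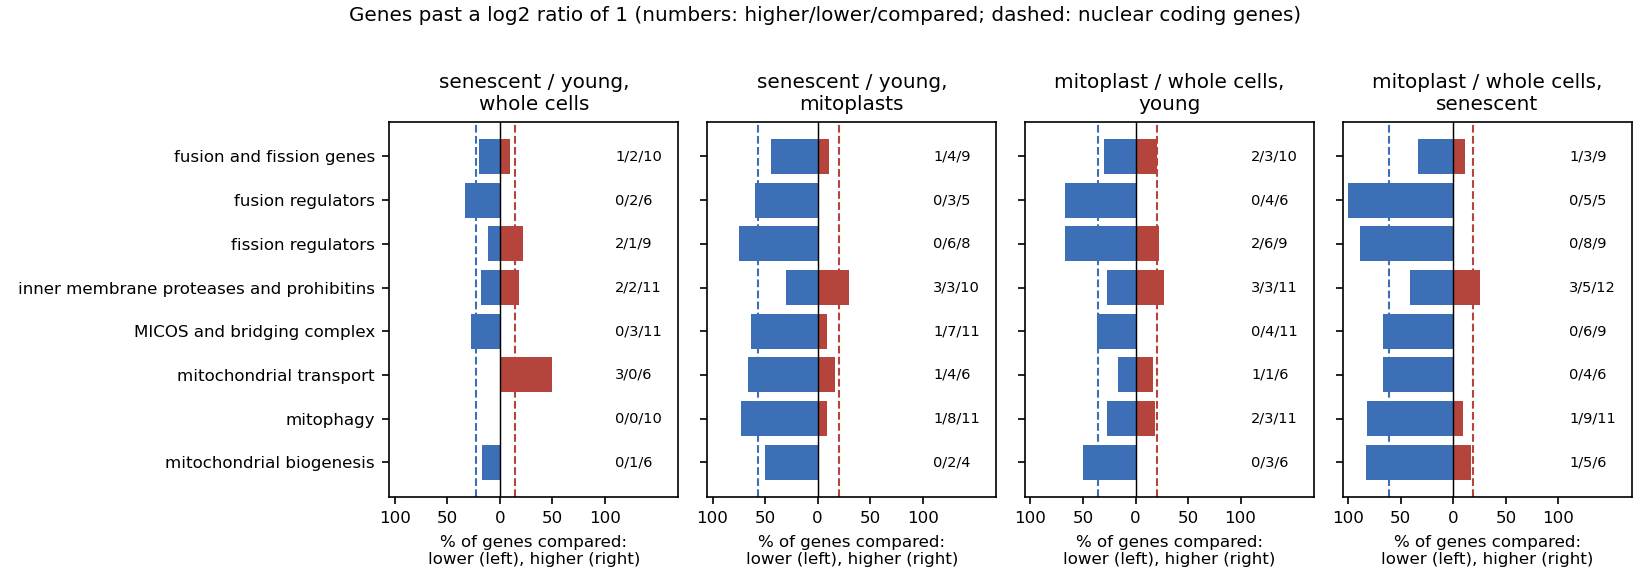
Share of the genes compared (horizontal axis, percent) that passed a log2 ratio of 1, lower to the left and higher to the right, for the fusion and fission genes and 7 lists of related genes in the 4 comparisons, with dashed lines at the share of nuclear coding genes and the numbers higher, lower and compared at the right. In whole cells the transport list has 3 of 6 genes higher, beside 14.6% of nuclear coding genes.

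Signal outside the annotated sum exceeded that sum for 3 genes, in 1 library each. These were MFN2 in young whole cells, OPA1 in senescent mitoplasts and DNM1L in young mitoplasts. In the other libraries it was below the sum or absent for these genes. Assembled transcripts of the MFN2 locus were not above 0 in either senescent library, against 5.37 FPKM in young mitoplasts and 20.7 FPKM in young whole cells. For OPA1 the additional signal was the unnamed Ensembl transcript in the senescent mitoplast library and assembled transcripts in whole cells. For DNM1L it was the assembled transcript in the young mitoplast library. For MFN1, MFF, MIEF1 and YME1L1 assembled transcripts of the gene's own locus reached at most 5.41 FPKM, in MFF in the young mitoplast library, and FIS1 and MIEF2 had none. Each such transcript is a piece the authors' assembly placed in the locus, and how it overlaps the gene's exons was not analysed here.

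**Figure D5:**
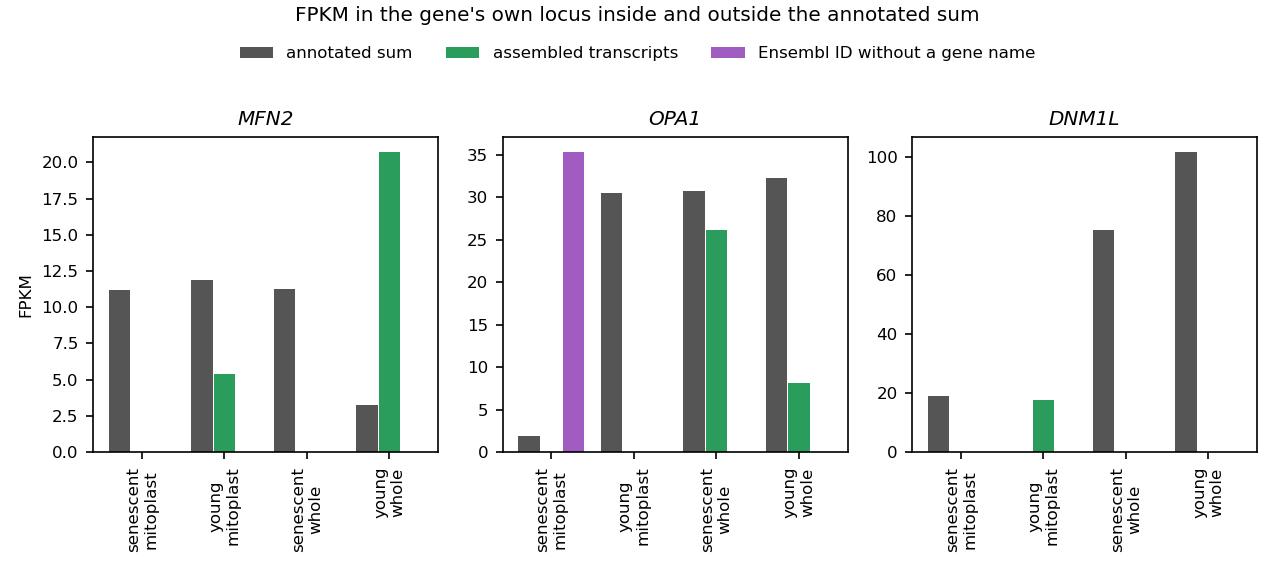
FPKM (vertical axis, a separate scale for each gene) of MFN2, OPA1 and DNM1L in the 4 libraries (horizontal axis), as the annotated sum, as assembled transcripts of the gene's own locus and as Ensembl transcripts of that locus without a gene name. The assembled transcript of MFN2 in young whole cells, at 20.7 FPKM, exceeds the annotated sum of 3.22 FPKM there, and the unnamed OPA1 transcript in the senescent mitoplast library, at 35.3 FPKM, exceeds the annotated sum of 1.94 FPKM.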

How the data were processed

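RNA of 4 WI-38 libraries, 1 per group, was analysed. The values are FPKM per transcript, as the authors deposited them for 393483 tracking IDs in each library. Cufflinks 2.2.1, Cuffdiff and TopHat2 2.0.14 appear, with no role, in the submitters' processing notes, as does hg19. No source used here gives the annotation release, the strand setting or the normalization options. Libraries were joined by tracking ID, since 8723 IDs carry an Ensembl identifier in some files only. Of 185591 Ensembl transcripts, 172598 (93.0%) matched GENCODE release 29, which gave gene names, types and lengths. Its build differs, so its coordinates are printed only with sequences read from it. No value column was left without a sample.

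Transcripts were summed per gene in Python 3.11.15 with pandas 2.3.3 and numpy 2.4.6. Genes at 1 FPKM or more in a library compared were set side by side as log2 ratios with a pseudocount of 1. With 1 library per group no test was possible. The code was checked on simulated data. The 10 genes and the 7 lists were chosen with earlier results of these data known, and all 10 genes are named, beside the highest or lowest gene of a list. MYO19, in the transport list, and PECAM1, an endothelial marker, are not analysed here, and 1 blood and immune marker is not reported here. Alternatives were coding transcripts alone, assembled transcripts added, a filter of 5 FPKM or none, a pseudocount of 0.1 and 3 rescalings. Complete coding transcripts, unnamed Ensembl transcripts, weighting by length and genes above 0 in both libraries were added after seeing the data.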

Additional observations from a re-analysis of the deposited data

Results flagged for a closer look

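MIEF1 had ratios of opposite sign under the same contrast. For senescent over young cells its log2 ratio was −1.98 in mitoplasts and 0.54 in whole cells. For mitoplasts over whole cells it was −0.98 in senescent cells and 1.53 in young cells. These differences rest on the same 4 libraries and were not tested. On coding transcripts the ratios were −1.07 and −0.25 for senescent over young, and −0.20 and 0.62 for mitoplasts over whole cells, so the opposite sign between the ages remained and that between the fractions did not.

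Signal also appeared in transcripts that the annotated sums leave out. An assembled transcript of the MFN2 locus had 20.7 FPKM in young whole cells, where the annotated sum was 3.22 FPKM. An Ensembl transcript of the OPA1 locus without a gene name had 35.3 FPKM in the senescent mitoplast library, where the annotated sum was 1.94 FPKM. An assembled transcript of the DNM1L locus had 17.6 FPKM in the young mitoplast library, where the annotated sum was 0.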

How the results depend on the processing

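No paired analysis was possible because each group holds 1 library and the labels give no replicate numbers. Since the files give no error, a value was taken as moved past 0.58 on the log2 scale or 1.5 times for a count. Of the counts and medians over the 10 genes, 107 values stayed within that and 37 moved. For senescent over young whole cells (1 higher, 2 lower), 0 genes were higher with assembled transcripts and 2 weighted by length, and 1 was lower with the 5 FPKM filter, the median-of-ratios scaling, the upper-quartile scaling and genes above 0 in both libraries. For senescent over young mitoplasts (1 higher, 4 lower, median −0.14), 0 were higher with coding, complete coding or assembled transcripts and with genes above 0 in both, 3 with the median-of-ratios and equal-sum scalings and 2 with the upper quartile. The median was −1.44 with coding and −1.90 with complete coding transcripts, −1.08 weighted by length, 0.73 by median of ratios and 0.79 by equal sum. For young mitoplasts over whole cells (2 higher, 3 lower, median 0.05), 1 was higher with coding or complete coding transcripts and 0 with assembled ones, 1 was lower with genes above 0 in both, and the median was 0.70 by upper quartile. For senescent mitoplasts over whole cells (1 higher, 3 lower, median −0.62), 0 were higher with coding or complete coding transcripts or weighted by length, 4 by median of ratios, and 2 by equal sum and upper quartile. There 5 were lower with coding transcripts, 7 with complete coding transcripts and 5 weighted by length, and the median was −1.24, −1.38, 0.52 by median of ratios, 0.084 by equal sum and 0.34 by upper quartile. The rescalings multiply the libraries of a comparison by factors that differ by −0.20 to 1.20 on the log2 scale, and with the pseudocount low genes moved by other amounts. The cause of the other changes was not tested.

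Ratios of single genes turned for MFN2 with assembled transcripts (−1.03 in whole cells, −0.45 in young mitoplasts over whole cells). They turned for OPA1 with the unnamed transcript (0.28 between mitoplasts, 0.27 in senescent mitoplasts over whole cells). The MIEF2 ratio of senescent mitoplasts over whole cells turned to −0.25 weighted by length. It also turned with coding and with complete coding transcripts, which are listed at 0 in the mitoplast library. Of the other values of single genes 395 stayed on the same side of a ratio of 1 in size, 18 gained the call, 14 lost it and 8 gained it with the opposite sign. Among the 395 the size could change, and so could the sign of ratios under 1 in size. DNM1L in whole cells went from −0.43 to 0.83 with coding transcripts, and MFN1 between mitoplasts from −0.14 to 0.79 by equal sum. Depth is unknown, and exact zeros limit every ratio with the mitoplast libraries.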
